A study of Mus musculus with 13 samples.

Results

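Rab proteins are small GTPases that give each membrane of the cell its identity. In the GTP-bound form they sit on a membrane and recruit effectors that bud, move, tether and fuse vesicles. Guanine nucleotide exchange factors (GEFs) switch them on and GTPase-activating proteins (GAPs) switch them off. In mammary epithelium they carry cargo between the endoplasmic reticulum (ER) and the Golgi apparatus, sort receptors in endosomes, return them to the surface and export milk proteins and lipid. TSG101, the protein overexpressed in the mice of this study, belongs to ESCRT-I, a complex that sorts ubiquitinated cargo into multivesicular endosomes. These meet the compartments marked by the Rab proteins of early endosomes, late endosomes and lysosomes.

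The Rab genes were chosen by symbol alone, as Rab followed by a number and at most a letter and a further digit. This gave 52 of the 15213 listed genes, and 44 of the 52 passed the filter on low values, against 11795 of all genes. The filter kept genes above 5 normalized cpm (reads scaled to the effective library size) in at least 7 of the 13 libraries. The 8 genes below it, Rab19, Rab26, Rab37, Rab38, Rab39b, Rab40b, Rab42 and Rab44, were given values from the same test without the filter. The 10 tumors can meet this filter alone and the 3 glands cannot. It kept 449 genes with no gland above 5, Rab27b among them, and removed 346 with every gland above 5.

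Sequenced were 10 mammary tumors (genotype MtTA Teto-TSG101wt, that is, MMTV-tTA TetO-Tsg101 females) and 3 WT FVB mammary glands, each gland from another mouse without transgenes. The mice with tumors carry the tetracycline-controlled transactivator (tTA) under the promoter of the mouse mammary tumor virus, which drives an HA-tagged full-length mouse TSG101 and a luciferase reporter in the absence of doxycycline, mainly in luminal mammary epithelium. The glands' age and reproductive stage are not given in the labels. The 10 tumors came from 6 mice, of which 3 gave 1 tumor, 2 gave 2 tumors and 1 gave 3 tumors (8, 9 and 10), so that the tumors are not all independent. There was no group with the transgenes and without a tumor, so transgene, tumor and tissue composition cannot be told apart. In bulk tissue, fewer cells of a type and less RNA per cell cannot be told apart either.

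The endogenous and transgenic Tsg101 transcripts count as a single gene in these data, with levels of 49.9 to 101 normalized cpm in the tumors and 45.6 to 61.0 in the glands (log2 fold change 0.30 ± 0.20 (SE), adjusted p = 0.296). Epithelial keratins and junction genes, 15 listed of a list of 15, summed to 2360 to 3768 in the tumors and 1482 to 3522 in the glands. The groups differed in other tissue markers. The summed adipocyte list (12 of 12 listed) was 112 to 602 in the tumors and 5906 to 15614 in the glands, and the milk list (9 of 9) was 1468 to 77449 and 167096 to 306458. The squamous list (12 of 12) was 822 to 4910 in the tumors and 39.3 to 67.9 in the glands, and Ivl, Sprr1b, Flg and Klk7 were at 0 in all 3 glands. The fibroblast list (8 of 8 listed) was 425 to 1202 in the tumors and 3951 to 4484 in the glands, and the endothelial list (8 of 8) 70.8 to 148 and 353 to 681. In the macrophage list (10 of 10) and the proliferation list (8 of 8), 6 genes each were higher by the adjusted p, with sums of 1254 to 5066 against 770 to 2136 and of 322 to 518 against 142 to 295. The part of these lists in the Rab levels was not tested. Depth was 6176269 to 16835397 reads in the tumors and 11672487 to 23889042 in the glands. Tumor 9 and gland 3 had the highest share of reads from the ribosomal gene Rn45s in their groups, at 27.4% and 4.35%, and tumor 6 was at 9.32%.

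The summed level of the Rab genes was 2534 to 3284 normalized cpm in the tumors and 2891 to 3211 in the glands. As a share of the reads of a library it was 0.297% to 0.347% in 9 tumors and 0.233% in tumor 9, against 0.283%, 0.291% and 0.213% in glands 1, 2 and 3, so that 9 of 10 tumors were above every gland on this scale. Significantly deregulated, here an adjusted p below 0.05 together with a change of more than 2-fold, were 2 of the 44 Rab genes (4.55%), compared with 17.2% of all genes tested. Rab27b was higher in tumors (1 gene, all genes 10.2%) and Rab4a was lower (1 gene, all genes 6.99%). Rab27b passed the filter through the tumors alone, so it had to differ to be tested here, and without the filter its adjusted p was 2.59e-05. With the adjusted p alone, 13 of 44 passed (29.5%, all genes 27.8%). Of these, 6 rose (all genes 14.8%), namely Rab27b, Rab34, Rab25, Rab31, Rab24 and Rab6a, and 7 fell (all genes 13%), namely Rab4a, Rab7, Rab3a, Rab18, Rab7b, Rab30 and Rab5b. The share of Rab genes past the adjusted p was near that of all genes, and the share also past 2-fold was lower on this scale, a difference that was not tested. The values of the 2 groups did not overlap for 12 of 44 Rab genes (27.3%, all genes 19.2%), 7 higher (all genes 10.7%) and 5 lower (all genes 8.53%).

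Without the filter, 5 of 52 were significantly deregulated (9.62%, all genes 20.6%), 2 higher with Rab44 in addition (all genes 10.5%) and 3 lower with Rab42 and Rab37 in addition (all genes 10.1%), and 17 of 52 had an adjusted p below 0.05 (32.7%, all genes 31.3%), 7 higher (all genes 15.3%) and 10 lower (all genes 16%). Without overlap between the groups were 14 of 52 (26.9%, all genes 21.7%), 8 higher (all genes 11.4%) and 6 lower (all genes 10.3%). The median log2 fold change of the 52 Rab genes was -0.11, beside 0.01 for all genes. These directions depend on how libraries are scaled. Plain cpm, with no factor for the composition of a library, moved the median of all genes to 0.31 and left none of the 7 lower Rab genes past the adjusted p, and scaling to the epithelial list moved it to -0.52 and left 8 of the 13. Lost with epithelial scaling were Rab24, Rab25, Rab31, Rab34 and Rab6a, that is, every higher gene but Rab27b. The significantly deregulated Rab genes were 6 higher and 0 lower with the former and 1 higher and 12 lower with the latter, against 1 and 1. All genes moved the same way, to 1864 higher and 495 lower with the former and 648 higher and 2411 lower with the latter, against 1204 and 825. The called share was 13.6% of the Rab genes and 20% of all genes in plain cpm, and 29.5% and 25.9% with epithelial scaling. None of the 13 changed sign under any scaling tried.

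Many values rested on single glands. Of the 17 genes with an adjusted p below 0.05, 7 lost it without gland 1, 8 without gland 2 and 4 without gland 3, and 0, 0 and 5 others gained it, the 5 being Rab11a, Rab1b, Rab20, Rab40c and Rab43 without gland 3. The log2 fold change of 14, 19 and 19 of the 52 genes moved by more than 1.5 times without glands 1, 2 and 3, many of them near 0. Among those farther from 0, for example, Rab11b (-0.34) was at -0.19, -0.14 and -0.71 without glands 1, 2 and 3, and Rab27a (0.27) at 0.44, 0.13 and 0.22. Without single tumors 0 to 3 genes lost the adjusted p and 0 to 11 moved by more than 1.5 times, with 11 without tumor 9. Rab11a and Rab1b gained it without tumor 6, and Rab40c without tumor 9. Signs turned without some library for Rab10, Rab13, Rab14, Rab21, Rab22a, Rab26, Rab33b, Rab5a and Rab8b, none of them past the adjusted p.

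**Figure D1:**
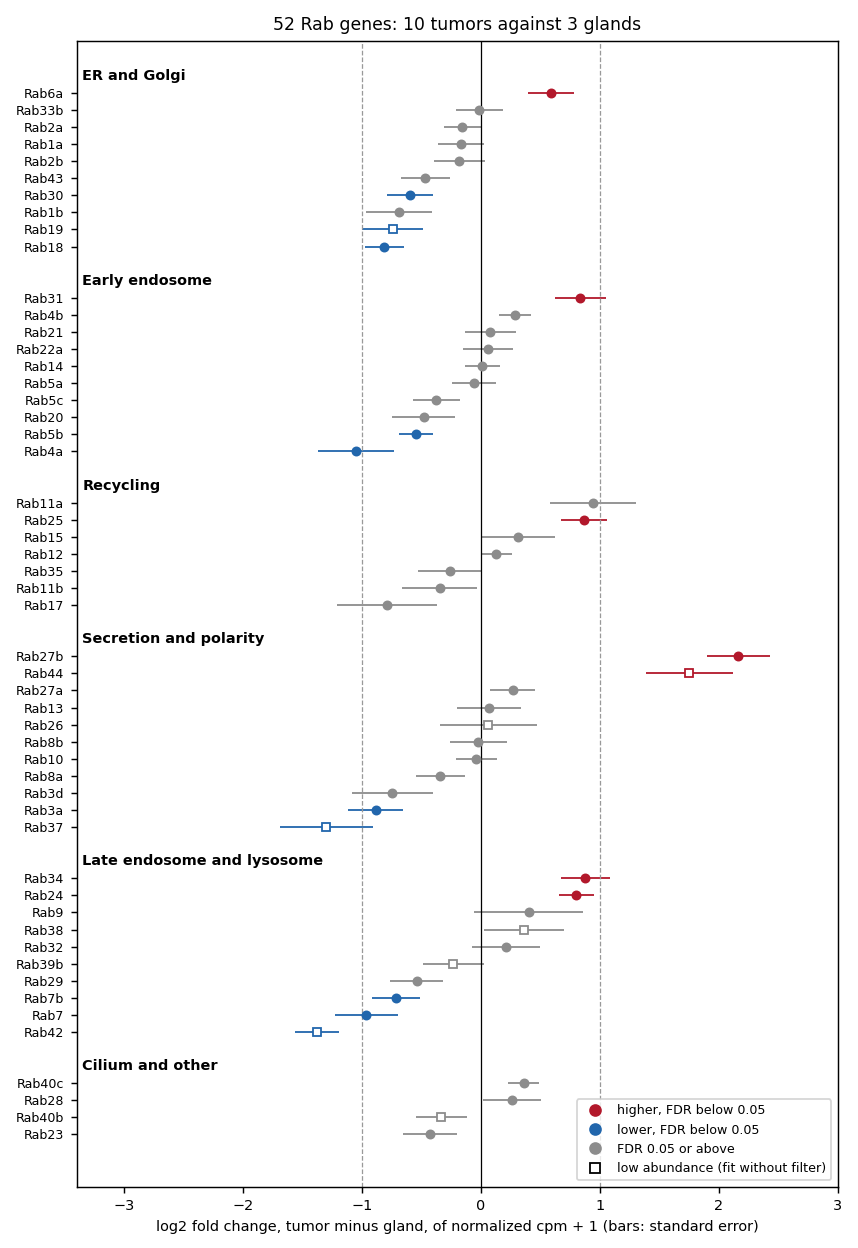
Log2 fold change (tumor minus gland) of each of the 52 Rab genes with its standard error, on the log2(normalized cpm + 1) scale, grouped by membrane step, with dashed lines at 2-fold. Rab27b (2.16) stands farthest to the right and Rab42 (-1.38) farthest to the left, and 47 of the 52 points lie within the dashed lines.

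Promoter sequence was read from RefSeq (GRCm38.p6) for 42 of the 52 genes, as the 250 bases before the listed start. The promoters of 3 genes that rose and of Rab7, which fell, are shown, with matches to the motifs searched in capitals. They are examples picked from the larger number of Rab genes that moved without overlap between the groups. Rab25 lies at chr3:88542029-88548279, Rab34 at chr11:78188427-78192193, Rab24 at chr13:55319223-55321980 and Rab7 at chr6:87999106-88045270. The windows are chr3:88548280-88548529 (minus strand), chr11:78188177-78188426 (plus strand), chr13:55321981-55322230 (minus strand) and chr6:88045271-88045520 (minus strand), all 5′ to 3′ toward the gene.
Rab25: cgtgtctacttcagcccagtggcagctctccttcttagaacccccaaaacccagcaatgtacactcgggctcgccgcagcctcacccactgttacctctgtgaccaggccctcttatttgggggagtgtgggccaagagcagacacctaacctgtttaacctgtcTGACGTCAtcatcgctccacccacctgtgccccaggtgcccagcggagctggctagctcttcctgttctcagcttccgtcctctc
Rab34: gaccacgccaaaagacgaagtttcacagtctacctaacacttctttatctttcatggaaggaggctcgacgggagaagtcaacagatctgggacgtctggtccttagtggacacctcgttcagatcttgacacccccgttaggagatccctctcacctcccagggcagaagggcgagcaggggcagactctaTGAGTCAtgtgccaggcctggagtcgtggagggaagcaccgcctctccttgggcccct
Rab24: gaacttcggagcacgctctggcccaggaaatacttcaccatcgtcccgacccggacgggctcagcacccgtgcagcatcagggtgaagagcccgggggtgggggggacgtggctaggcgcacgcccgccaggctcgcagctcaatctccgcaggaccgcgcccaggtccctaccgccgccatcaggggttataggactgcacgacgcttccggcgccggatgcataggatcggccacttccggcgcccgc
Rab7: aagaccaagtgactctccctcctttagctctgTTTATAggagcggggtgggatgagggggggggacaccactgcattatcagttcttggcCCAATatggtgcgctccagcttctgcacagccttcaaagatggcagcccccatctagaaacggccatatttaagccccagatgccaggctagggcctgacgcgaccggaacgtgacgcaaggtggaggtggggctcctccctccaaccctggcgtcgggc

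Both strands were searched for 6 motifs. The letters TGACGT, the half-site of a cyclic AMP response element, match Rab25 on both strands in overlapping positions that begin 85 and 83 bases before the start. They occur in 6 of 42 Rab promoters (14.3%) and in 6.56% of all 27025 listed promoters of this length. Rab6a, which rose, and Rab3a, which fell, are among the 6. The AP-1 site TGANTCA matches Rab34 alone among the Rab promoters (2.38%, all promoters 6.87%), 58 bases before its start. Rab7 holds TATAAA (3 of 42 Rab promoters, all 12.97%) on the opposite strand 218 bases before the start, and CCAAT (45.2%, all 34.5%) 160 bases before it. Rab24 has none of the motifs. The GC box GGGCGG was in 28 of 42 Rab promoters (66.7%, all 32.9%), and the E-box CACGTG in 4 (9.52%, all 6.05%). The 27025 promoters are all those of the reference and are not limited to the genes listed in this series, so the Rab shares stand beside an unlike set. The shares describe letters in a window and say nothing of the factors that bind there.

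Rab proteins of secretion and polarity dock secretory granules, exosome-forming endosomes and apical vesicles. Of the 11 listed genes, 2 rose, 2 fell and 7 did not pass the adjusted p in the test without the filter (all genes 15.3% higher and 16% lower). Rab27b, which docks multivesicular endosomes and secretory granules at the plasma membrane, was at 2.91, 3.87 and 1.71 normalized cpm in glands 1, 2 and 3. In tumors 1 to 10 its level was 20.1, 15.1, 19.9, 16.1, 16.1, 10.9, 24.1, 9.65, 19.3 and 11.3. Every tumor was above every gland. The mean was 16.3 ± 4.70 (SD, n = 10) against 2.83 ± 1.08 (SD, n = 3), a 5.74-fold ratio of means, with a log2 fold change of 2.16 ± 0.27 (SE) and an adjusted p of 3.02e-05. It was significantly deregulated in each of the 28 alternatives run, with log2 fold changes of 1.72 to 2.50. Rab27a, its closest relative, was at 8.55 to 15.7 in the tumors and 13.2, 8.26 and 9.51 in the glands (log2 fold change 0.27 ± 0.19 (SE), adjusted p = 0.328).

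Cell types known for Rab27b include mast cells and platelets, so their markers were set beside it. Of a mast cell list of 6 genes, 5 were listed, and 1 had an adjusted p below 0.05 without the filter, within 2-fold. Its sum was 147 to 287 in the tumors and 78.1 to 184 in the glands, nearly all of it Kit, which luminal epithelium also expresses. The proteases Cpa3, Mcpt4, Cma1 and Tpsb2 were at 5.54 or less in every library, with Cpa3 at 0 in tumors 9 and 10. The platelet list, 3 of 5 listed, summed to 9.8 to 19.6 in the tumors and 16.0 to 35.0 in the glands. Its gene Gp1bb, of the platelet receptor for von Willebrand factor, was significantly higher in tumors without the filter, at 0.54 to 6.19 against 0.26, 0.67 and 0.12 in glands 1, 2 and 3. Tumor 7, with the highest Rab27b and Rab44, also had the highest squamous sum (4910), neutrophil sum (3941) and sum of basal epithelial genes (4807). Tumor 1, next in Rab27b, was at 1121, 467 and 1145 in these sums. Whether squamous, basal or neutrophil cells contribute to Rab27b was not tested.

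Rab44, a large Rab with an EF-hand domain that is known from mast cells and other immune cells, was at 0.34, 0.52 and 0.73 in the glands. The tumors ran from 1.77 through a median of 4.23 to 12.6, without overlap. The glands held 8, 10 and 6 reads and the tumors 15 to 120, and the ratio of means was 8.83-fold (log2 fold change 1.75 ± 0.37 (SE), adjusted p = 0.00208 without the filter). It remained significantly deregulated in all 27 alternatives that give it a value. The neutrophil list, 6 of 7 listed, summed to 304 to 3941 in the tumors and 4.0 to 49.7 in the glands, with 3 of its 6 genes higher and Cxcr2 at 0 in gland 2. The part of these cells in the Rab44 level was not tested.

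Rab3a and Rab3d regulate the fusion of secretory granules. Rab3a fell, from 14.9, 17.1 and 9.51 in the glands to 4.08 to 9.25 (median 7.55) in the tumors, with every tumor below every gland (log2 fold change -0.88 ± 0.23 (SE), adjusted p = 0.00994). Leaving out gland 1 or gland 2 ended this call (adjusted p = 0.0608 and 0.0733), and without gland 3 the log2 fold change was -1.11. Rab3d was 58.7, 61.7 and 35.7 in the glands and 13.9 to 49.1 in the tumors, with 6 of 10 tumors below all glands (adjusted p = 0.123). Rab37, a granule Rab, was at 9.42, 2.07 and 15.6 in the glands and 1.27 to 3.96 in the tumors (log2 fold change -1.30 ± 0.39 (SE), adjusted p = 0.0195), so that gland 2 lay within the tumors. Its log2 fold change was -1.12 without gland 1 (adjusted p = 0.111), -2.001 without gland 2 and -0.78 without gland 3 (adjusted p = 0.130). The lymphocyte list (12 of 12 listed, 9 lower without the filter) was also lowest in gland 2 among the glands, at 724, 34.2 and 705 in glands 1, 2 and 3 and 17.9 to 168 in the tumors, and Ms4a1, a B cell marker, was at 0 in 4 tumors. Rab37 also overlaps Cd300lf, a myeloid receptor gene, and the sources do not say whether reads were counted by strand. The part of either was not tested.

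The polarity genes did not pass the adjusted p. Rab8a and Rab8b, which carry vesicles to cilia and the apical surface, had log2 fold changes of -0.34 ± 0.20 and -0.02 ± 0.24 (SE). Rab10, of basolateral and GLUT4 traffic, and Rab13, of tight junctions, were at -0.04 ± 0.17 and 0.07 ± 0.27 (SE). Of these genes Rab8b, Rab10 and Rab13 turned in sign under some alternatives. Rab26, of granule maturation, had 0.06 ± 0.41 (SE) from 2 to 28 reads a library.

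**Figure D2:**
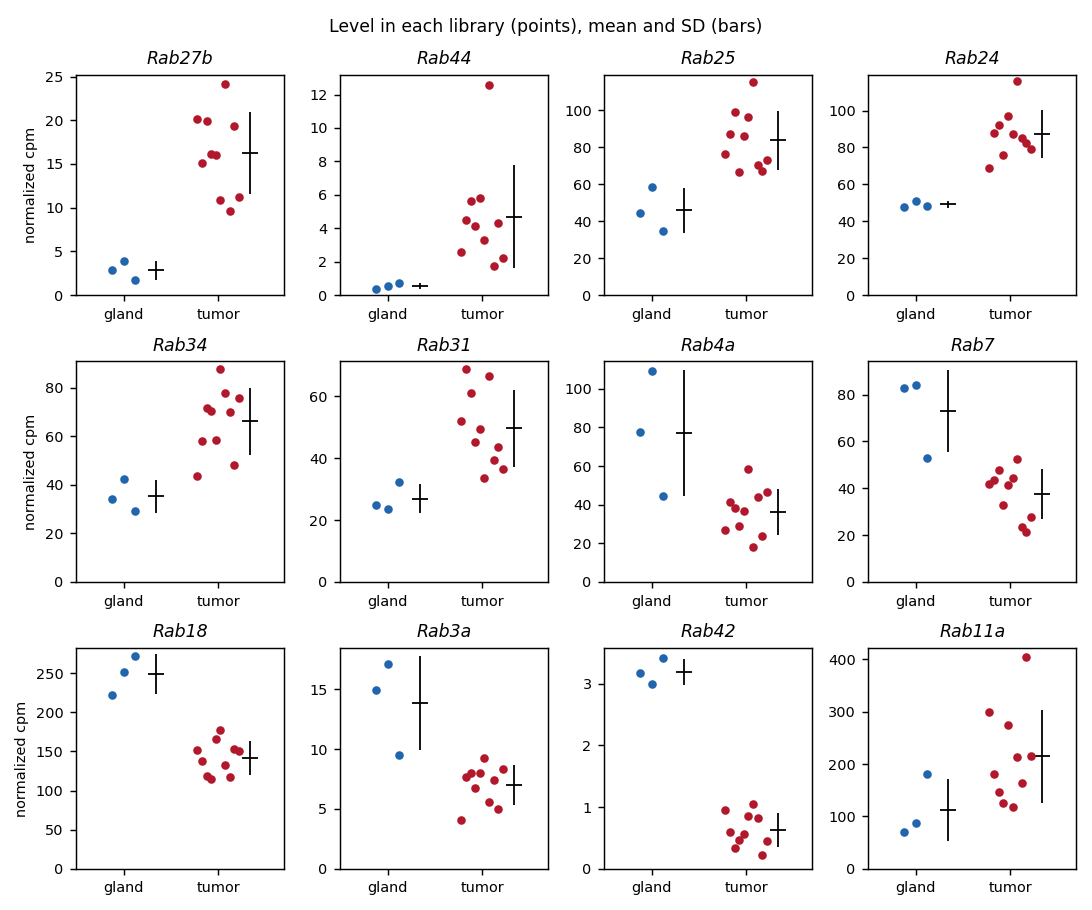
Normalized cpm of 12 Rab genes in each library (points, glands blue and tumors red, vertical axes from 0), with the mean and SD of each group as black bars beside the points. Rab27b, Rab44, Rab25, Rab24, Rab34 and Rab31 are higher in every tumor than in any gland, Rab7, Rab18, Rab3a and Rab42 are lower in every tumor, and Rab4a and Rab11a overlap at gland 3.

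Recycling Rab proteins return endocytosed receptors to the cell surface. Of 7 listed genes, 1 rose and 6 did not pass the adjusted p (all genes 14.8% higher and 13% lower). Rab25, a relative of Rab11 found in epithelia, was at 44.3, 58.5 and 34.5 in the glands and 66.4 to 115 (median 81.0) in the tumors. All 10 tumors were above the glands, with a ratio of means of 1.83-fold (log2 fold change 0.86 ± 0.20 (SE), adjusted p = 0.00394). Rab11a, the general recycling Rab, was at 70.3, 87.4 and 180 in the glands and at 119, 198 and 404 as the lowest, median and highest tumor. Gland 3 lay among the tumors, and 6 of 10 tumors were above all glands (log2 fold change 0.94 ± 0.36 (SE), adjusted p = 0.0666). Single glands moved the log2 fold change from 0.66 without gland 1 (adjusted p = 0.333) and 0.82 without gland 2 (adjusted p = 0.230) to 1.34 without gland 3 (adjusted p = 0.0165). Without both tumor 9, its highest library, and gland 3 it was 1.22 (adjusted p = 0.0104).

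Other recycling genes varied more among libraries than between the groups. Rab17, of apical recycling in polarized epithelia, was at 13.1, 22.05 and 64.2 in the glands and 7.97 to 29.3 in the tumors (log2 fold change -0.79, adjusted p = 0.188). The change was -0.17 without gland 3 and -1.28 without gland 1. Rab15, of early and recycling endosomes, was at 72.7 to 167 in the glands and 91.5 to 277 in the tumors (adjusted p = 0.489), with a log2 fold change of 0.32, or 0.0069 without gland 3. Rab11b (-0.34 ± 0.32), Rab35 (-0.26 ± 0.27) and Rab12 (0.13 ± 0.13, log2 fold change ± SE) did not pass either. Rab35 was at -0.06 without gland 1 and -0.53 without gland 3. The summed level of the 7 genes was 439 to 668 in the tumors and 370 to 459 in the glands, with 9 of 10 tumors above gland 2, the highest gland.

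Early endosomal Rab proteins govern uptake, homotypic fusion and fast recycling. Of 10 listed genes, 1 rose, 2 fell and 7 did not pass the adjusted p (all genes 14.8% higher and 13% lower). Rab4a, which returns receptors rapidly from early endosomes, was at 77.6, 109 and 44.5 in the glands. The tumors were at 26.8, 41.4, 38.3, 28.9, 36.9, 58.2, 18.1, 43.9, 23.7 and 46.7 in order of their numbers. Gland 3 lay within the tumors, and 8 of 10 tumors were below all glands. The means were 36.3 ± 12.1 (SD, n = 10) and 77.2 ± 32.5 (SD, n = 3), with a log2 fold change of -1.05 ± 0.32 (SE) and an adjusted p of 0.0235. This call rested on few libraries. The change was under 2-fold without tumor 7 (-0.95) or tumor 9 (-0.99), and the adjusted p was 0.096 without gland 1 and 0.170 without gland 2.

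Rab4b, the close relative of Rab4a, was higher in 9 of 10 tumors than in all glands, at 28.0 to 40.7 against 30.1, 24.3 and 27.4 (log2 fold change 0.29 ± 0.13 (SE), adjusted p = 0.127). Rab31, of trans-Golgi to endosome traffic and epidermal growth factor receptor trafficking, rose from 25.0, 23.5 and 32.2 to 33.6 to 69.0 (median 47.4), without overlap (log2 fold change 0.84 ± 0.22 (SE), adjusted p = 0.00969, and 0.0543 and 0.0576 without gland 1 or gland 2). Its relative Rab22a was at 15.7 to 33.9 in the tumors and 25.2, 23.6 and 17.3 in the glands (adjusted p = 0.867). The 3 Rab5 genes encode the master regulators of early endosome fusion. Rab5b fell from 98.8, 106 and 98.9 to 50.8 to 77.0 (log2 fold change -0.54 ± 0.14 (SE), adjusted p = 0.0105, and 0.0526 without gland 2). It overlaps Pmel, which was at 3.21 or less in every library. Rab5a (-0.06 ± 0.19) and Rab5c (-0.38 ± 0.20, log2 fold change ± SE) did not pass. Rab14 (0.01 ± 0.15), Rab21 (0.08 ± 0.22) and Rab20 (-0.48 ± 0.26), which act in endosome to Golgi transport, integrin uptake and phagosome maturation, did not pass either. Without gland 3, Rab20 was at -0.82 with an adjusted p of 0.0318.

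Late endosomal and lysosomal Rab proteins move and fuse the compartments into which ESCRT delivers its cargo. Of 10 listed genes, 2 rose, 3 fell and 5 did not pass the adjusted p in the test without the filter (all genes 15.3% higher and 16% lower). Rab7, the central Rab of late endosome to lysosome transport, was at 82.6, 83.9 and 52.8 in glands 1, 2 and 3. In tumors 1 to 10 its level was 41.6, 43.7, 47.8, 32.7, 41.3, 44.4, 52.5, 23.5, 21.4 and 27.6. Every tumor was below every gland, but tumor 7 was close to gland 3, and the 3 tumors of the mouse with tumors 8, 9 and 10 were lowest. The means were 37.7 ± 10.7 (SD, n = 10) and 73.1 ± 17.6 (SD, n = 3), with the glands 1.94-fold higher (log2 fold change -0.96 ± 0.27 (SE), adjusted p = 0.0137). Leaving out gland 1 or gland 2 ended the call (-0.86 and -0.85, adjusted p = 0.0818 and 0.0766), and without gland 3 the log2 fold change was -1.18 (adjusted p = 0.00874). Rab7b, of endosome to trans-Golgi transport, fell without overlap from 32.4, 36.9 and 34.6 to 13.2 to 29.5 (log2 fold change -0.72 ± 0.20 (SE), adjusted p = 0.0160, and 0.0710 without gland 2).

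Rab24 and Rab34 rose in the same group. Rab24, an atypical Rab of autophagosome clearance, was at 47.7, 51.1 and 48.5 in the glands. The tumors were at 69.0 to 116 (median 86.3), all above the glands (log2 fold change 0.80 ± 0.15 (SE), adjusted p = 0.000971). Rab34, of lysosome positioning and primary cilium formation, was at 34.2, 42.4 and 29.0 in the glands and 43.7 to 87.8 (median 70.1) in the tumors (log2 fold change 0.88 ± 0.20 (SE), adjusted p = 0.00477). Its lowest tumor, tumor 1, exceeded gland 2 by a small margin.

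Rab42 was the gene with the most negative log2 fold change. It was at 3.17, 2.99 and 3.41 in the glands and 0.23 to 1.05 (median 0.58) in the tumors, from 74, 58 and 28 reads in glands 1, 2 and 3 and 1 to 16 reads in the tumors. The glands were 5.05-fold higher by the means (log2 fold change -1.38 ± 0.19 (SE), adjusted p = 5.84e-05 without the filter). Rab9, of late endosome to trans-Golgi recycling, spanned 44.3 to 220 in the tumors and 38.1, 54.6 and 138 in the glands (log2 fold change 0.40, adjusted p = 0.561), with tumor 9 and gland 3 highest in their groups. Its log2 fold change was 0.92 without gland 3 and 0.012 without gland 1. Rab32 and Rab38, of lysosome-related organelles and melanosomes, did not pass (0.21 ± 0.29 and 0.36 ± 0.34, log2 fold change ± SE). Rab29, which acts with the kinase LRRK2, and Rab39b were at -0.54 ± 0.22 and -0.23 ± 0.26 (log2 fold change ± SE). Without gland 3, Rab29 was at -0.30. Of the melanocyte list 3 of 7 genes were listed, at a sum of 8.9 to 25.7 in the tumors and 8.4 to 12.6 in the glands.

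Rab proteins of the ER and Golgi carry newly made protein forward and back. Of 10 listed genes, 1 rose, 3 fell and 6 did not pass the adjusted p in the test without the filter (all genes 15.3% higher and 16% lower). Rab18, which acts at the ER and on the surface of lipid droplets, was at 222, 252 and 272 in the glands and 115 to 177 (median 144) in the tumors. The groups were far from overlap (log2 fold change -0.81 ± 0.16 (SE), adjusted p = 0.00177). The adipocyte sum moved in the same direction, with gland 3 highest in both, and 5 of its 5 genes past the filter were lower. Among the tumors, however, tumor 4 had the highest adipocyte sum (602) and the lowest Rab18 (115). The milk sum was also highest in gland 3 (306458). The part of either list in the Rab18 level was not tested. Rab30, a Golgi Rab, fell from 10.6, 12.5 and 18.0 to 6.74 to 10.98, with overlap at gland 1 (adjusted p = 0.0337, and 0.0718 and 0.159 without gland 2 or gland 3). This call was also lost without tumor 2, 4, 5 or 10, for the mean of each mouse, and with upper quartile scaling. Rab19, also of the Golgi, was at 4.11, 2.58 and 5.36 in the glands and 1.04 to 3.64 in the tumors (log2 fold change -0.74 ± 0.26 (SE), adjusted p = 0.0414 without the filter, and 0.138 and 0.160 without gland 1 or gland 3), and its call was also lost without any single one of tumors 2 to 8.

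Rab6a, of retrograde Golgi transport, rose from 93.7, 103 and 95.6 to 114 to 220 (median 149), without overlap (log2 fold change 0.59 ± 0.20 (SE), adjusted p = 0.0361). Tumor 9 was highest, and without it the gene still passed, whereas leaving out any of tumors 1, 5, 7, 8 and 10 or any gland ended the call. It overlaps Mrpl48, a gene of the mitochondrial ribosome. Rab1a, the Rab of ER to Golgi transport, was at 305, 376 and 425 in the glands and 258 to 415 in the tumors (-0.17 ± 0.19), and Rab2a, of the intermediate compartment, at 152 to 214 in the tumors and 182, 232 and 179 in the glands (-0.16 ± 0.15, log2 fold change ± SE). Rab2b (-0.18 ± 0.21), Rab33b (-0.01 ± 0.20) and Rab43 (-0.47 ± 0.21, log2 fold change ± SE), all of Golgi traffic, did not pass. Rab1b fitted at -0.69 ± 0.28 (SE) with an adjusted p of 0.0815. Without gland 3, Rab1b and Rab43 were at -0.88 and -0.65 (adjusted p = 0.0477 and 0.0453). The summed ER and Golgi genes were at 831 to 1130 in the tumors and 1093 to 1229.5 in the glands.

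The 4 remaining genes, Rab23, Rab28, Rab40b and Rab40c, have roles in cilia, Hedgehog signalling and ubiquitin ligase complexes. All 4 had an adjusted p above 0.05. Rab40c came closest, at 26.6 to 36.0 in the tumors and 21.6, 24.3 and 26.1 in the glands, with all 10 tumors above the glands (log2 fold change 0.36 ± 0.13 (SE), adjusted p = 0.0524, and 0.0463 and 0.0329 without gland 3 or tumor 9). Rab23, a negative regulator of Hedgehog signalling, had a log2 fold change of -0.43 ± 0.23 (SE) with 9 of 10 tumors below the glands (adjusted p = 0.184). Rab28 and Rab40b, both with a log2 fold change closer to 0 than that of Rab23, were at 0.26 ± 0.24 and -0.33 ± 0.21 (SE).

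**Figure D3:**
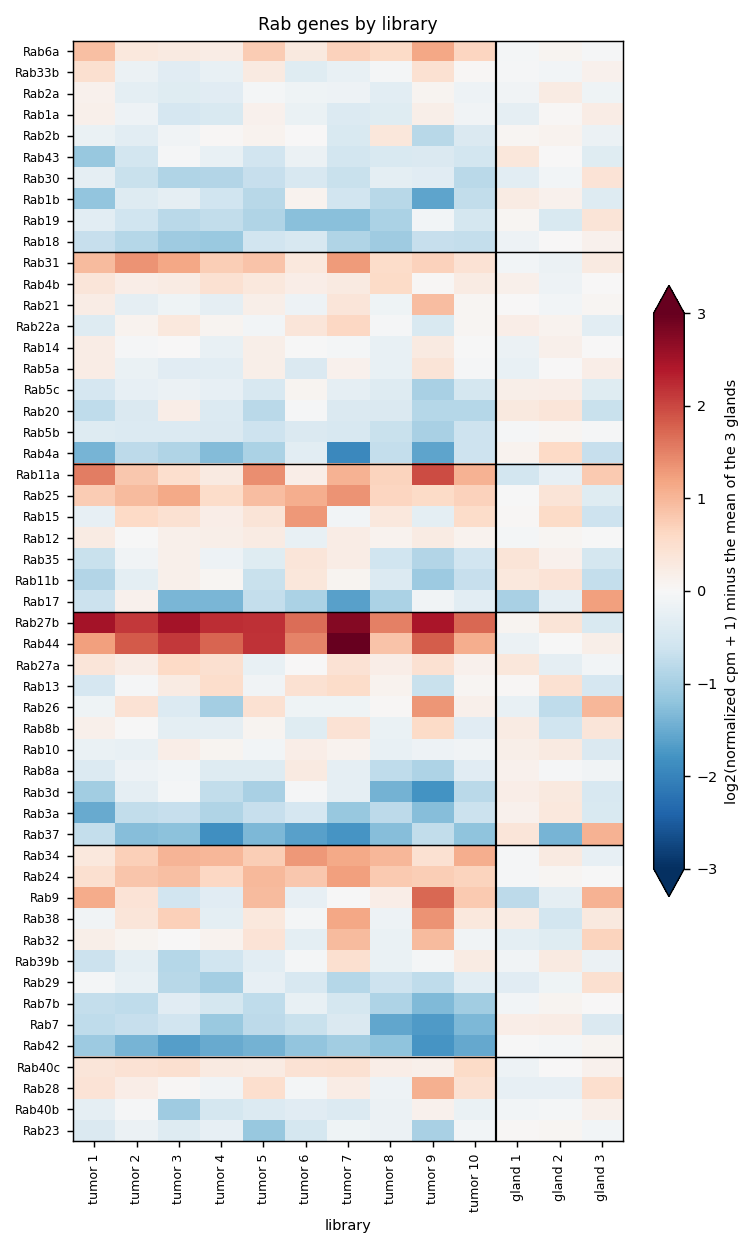
Level of the 52 Rab genes in each library as log2(normalized cpm + 1) minus the mean of the 3 glands (red higher, blue lower), with rows grouped by membrane step as in the plot of fold changes and a vertical line between tumors and glands. Rab27b and Rab44 are red in all 10 tumors, Rab42, Rab7 and Rab18 are blue in all 10, and Rab9, Rab11a and Rab17 differ as much among the glands as between the groups.

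Levels of different genes were compared per kilobase of exon. In the glands the most abundant were Rab1a (130 normalized cpm per kb), Rab2a (92.5), Rab1b (82.4) and Rab5c (72.9). In the tumors they were Rab1a (117), Rab11a (91.8), Rab2a (83.0), Rab25 (77.3) and Rab24 (74.6). Per kb, Rab11a was at 30.1, 37.4 and 77.2 in the glands and 50.9 to 173 in the tumors, so its place in the order depends on the library. Rab4a went from 43.9 per kb in the glands to 20.7 in the tumors. Rab27b stayed among the less abundant, at 0.23 to 0.51 per kb in the glands and 1.28 to 3.21 in the tumors.

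Close relatives were also compared within each library, as the difference of their log2(normalized cpm + 1). The ratios printed below are of the normalized cpm without the pseudocount, so the tested differences are smaller than these ratios give for low genes. Of 13 pairs compared by an exact permutation test (two-sided, 286 splits, smallest possible p = 0.0035), 2 passed after adjustment over the pairs. They hold Rab27b and Rab4a, the 2 genes called above in the same libraries, so they are not independent of those calls, and the pairs were chosen with earlier results known. The test treats the 10 tumors of 6 mice as exchangeable, and 0 pairs passed with the mean of each mouse. The ratio of Rab27b to Rab27a was 0.22, 0.47 and 0.18 in the glands and 0.82 to 1.88 in the tumors, without overlap (difference 1.90, or 2.05 with a pseudocount of 0.5, exact permutation p = 0.0035, adjusted p = 0.0455). By normalized cpm, which does not correct for length, Rab27b was below Rab27a in each gland and reached or passed it in 9 of 10 tumors. Per kb of exon, Rab27b was below Rab27a in every tumor and every gland. The means per kb were 2.16 against 3.96 in the tumors and 0.38 against 3.26 in the glands. The ratio of Rab4b to Rab4a was 0.39, 0.22 and 0.62 in the glands and 0.54 to 1.80 in the tumors, above all glands in 9 of 10 (difference 1.34, exact permutation p = 0.0070, adjusted p = 0.0455).

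The other pairs did not pass after adjustment. Rab31 to Rab22a was closest, with a ratio of 0.99, 1.00 and 1.86 in the glands and 1.19 to 3.16 in the tumors (difference 0.78, exact permutation p = 0.014, adjusted p = 0.0606). Rab11b to Rab11a differed by -1.28 (adjusted p = 0.255, exact permutation test), with gland 3 among the tumors. Without single libraries this difference ran from -2.04 to -0.85. With fewer libraries a pair cannot pass on its own, because the smallest p of the exact permutation test, 0.0045 without 1 tumor, 0.015 without 1 gland and 0.012 for the mean of each mouse, becomes 0.0591, 0.197 and 0.155 when multiplied by 13 pairs, so a call lost there says nothing of stability. The differences themselves were 1.71 to 2.22 for Rab27b to Rab27a and 0.97 to 1.69 for Rab4b to Rab4a without single libraries, and 1.97 for Rab27b to Rab27a with the mean of each mouse. Without both tumor 9 and gland 3, 5 pairs passed.

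**Figure D4:**
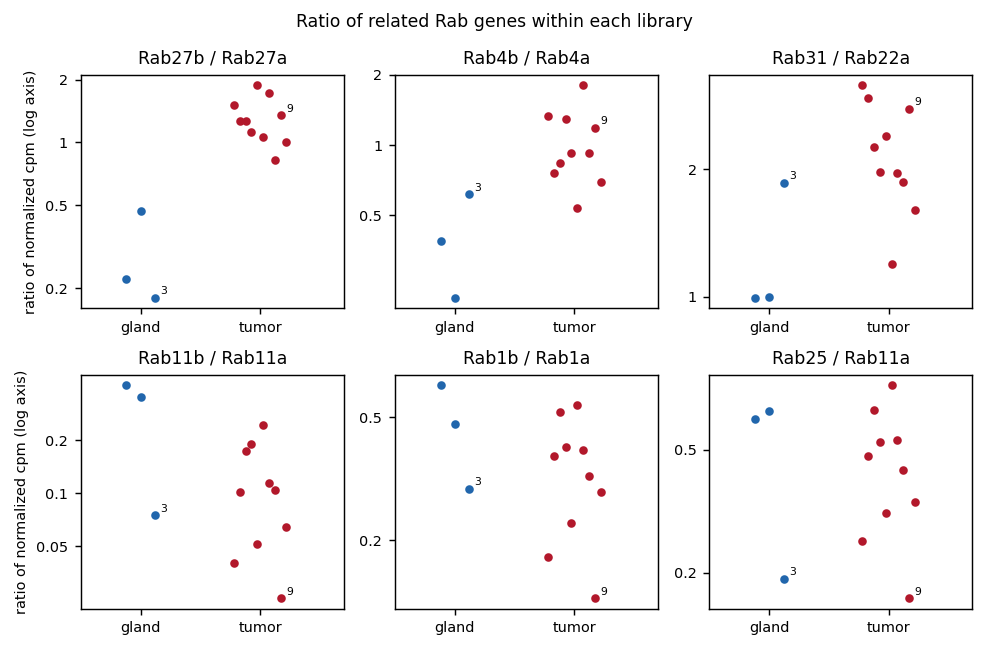
Ratio of normalized cpm of 6 pairs of related Rab genes in each library (points, log axis, glands blue and tumors red, tumor 9 and gland 3 numbered). Rab27b to Rab27a is at 0.82 or more in all tumors and at 0.47 or less in all glands, while in Rab11b to Rab11a, Rab1b to Rab1a and Rab25 to Rab11a gland 3 is the lowest gland and lies among the tumors, of which tumor 9 is lowest.

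Proteins that act on Rab GTPases were described from a list of 117 listed genes, of which 109 passed the filter. Significantly deregulated were 10 of the 109 (all genes 17.2%), 1 higher (all genes 10.2%) and 9 lower (all genes 6.99%). In plain cpm the split was 4 higher and 4 lower, and with epithelial scaling 0 higher and 37 lower, beside 1864 higher and 495 lower of all genes in the former and 648 and 2411 in the latter. The median log2 fold change of the 117 was -0.26, beside 0.01 for all genes. The higher gene was Dennd2c, a DENN domain GEF known to act on Rab9, at up to 30.7 (median 17.3) in the tumors and 5.83 to 7.44 in the glands (log2 fold change 1.34 ± 0.21 (SE), adjusted p = 2.2e-04). Of the 31 GEFs past the filter, 4 were lower (all genes 6.99%), and without the filter Dennd5b was lower as well (log2 fold change -1.68 ± 0.26 (SE), adjusted p = 1.7e-04). Rab3ip, which activates Rab8, was at 14.8 to 41.3 in the tumors and 37.1 to 81.4 in the glands (-1.35 ± 0.28), and Dennd3, which activates Rab12, was lower at -1.16 ± 0.29 (log2 fold change ± SE), or -0.90 with an adjusted p of 0.0773 without gland 1. Rin3, a GEF of the Rab5 family, was at 5.92 to 19.3 in the tumors and 12.1 to 48.7 in the glands, with 5 of 10 tumors below all glands (-1.22 ± 0.40, adjusted p = 0.0334). It was called in 19 of 28 alternatives, and without single libraries it ran from -1.72 to -0.76, with an adjusted p of 0.268 without gland 1 and 0.109 without gland 2.

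Of the 29 GAPs past the filter, 4 were lower (all genes 6.99%), and without the filter Tbc1d10c was lower as well (log2 fold change -2.13 ± 0.68 (SE), adjusted p = 0.0279), with overlap between the groups. Tbc1d13, known as a GAP of Rab35, was at 16.8 to 69.9 in the tumors and 105 to 218 in the glands (log2 fold change -2.06 ± 0.33 (SE), adjusted p = 2.7e-04), and Rab35 itself did not pass the test. Tbc1d16, known as a GAP of Rab4, was at 2.52 to 7.46 and 8.53 to 27.1 (-1.69 ± 0.33), and Tbc1d20, a GAP of Rab1, at 14.1 to 37.8 and 48.2 to 76.3 (-1.44 ± 0.28, log2 fold change ± SE). Of the 41 effectors past the filter, 1 was lower, Rilp, which links Rab7 to dynein, at 2.41 to 6.70 in the tumors and 8.09 to 15.7 in the glands (log2 fold change -1.04 ± 0.27 (SE), adjusted p = 0.00943, and 0.0588 without gland 3). Without tumor 7 or tumor 9 its change was under 2-fold (-0.96 and -0.99). Without the filter, Myrip, which links Rab27a to myosin (-1.92 ± 0.28), and the kinase gene Lrrk2 (-1.76 ± 0.36, log2 fold change ± SE) were lower too, both without overlap. Dennd5b, Tbc1d10c, Myrip and Lrrk2 are outside the rule for named genes and were named after their values were seen. The 8 genes for prenylation and membrane extraction of Rab proteins had a median log2 fold change of 0.08, and 1 of them had an adjusted p below 0.05 without the filter, within 2-fold.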

How the data were processed

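Total RNA from flash-frozen tissue of 10 tumors and 3 glands was sequenced as paired-end reads. The labels name 2 sites, whereas the paper gives only the core facility at UNMC. The labels do not say which library was made where, so no batch term could be fitted. The authors used Rsubread for mapping to mm10, featureCounts for counts per gene (strand setting not given in the sources used here) and edgeR for normalization. The deposited signal values are counts per gene over the effective size of the library, here called normalized cpm. All values were whole multiples of 1 read (tolerance 0.05), which gave back the reads and the depth. Precision is limited by that depth, and a floor of 3 reads per library covers counting error only. No 2 libraries agreed within sampling noise (lowest chi-square per gene 20.4).

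The main test was limma 3.58.1 (R 4.3.3) with a variance trend on log2(normalized cpm + 1), over the 11795 genes past the filter (3418 left out), with Benjamini-Hochberg adjustment over all of them. Fold changes of low genes are understated by the pseudocount of 1. Tumors of a mouse were taken as separate, so the p-values measure the spread among these samples. Alternatives were edgeR 4.0.16 and DESeq2 1.42.0 on the recovered reads, other scalings, pseudocounts and filters, correlated or averaged tumors of a mouse, left-out libraries and a replicate block. A GC adjustment, the fit without both tumor 9 and gland 3 and the unpaired fit of tumors 1 to 3 were added after seeing the data. The code was tested on simulated data. Rab genes were chosen by symbol. The 39 named were those significantly deregulated or past the adjusted p, plus a fixed list of genes spread over the transport steps. The rest are described so that every Rab gene is accounted for. Regulators named were the 3 with the largest rise and fall in each list among those significantly deregulated. The members, lists and pairs were chosen with earlier results of these data known. Exon lengths are those of the GENCODE exon union. Reads shared with paralogs, pseudogenes or overlapping genes (Rab10, Rab20, Rab2b, Rab37, Rab5b and Rab6a overlap another listed gene) could not be reassigned.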

Additional observations from a re-analysis of the deposited data

Results flagged for a closer look

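Of the 52 Rab genes, 5 had a tumor far from the other 9 by Dixon's criterion, applied to the values without logarithm. Chance alone meets this criterion in about 1 in 20 groups only if the values are normally distributed. Its share over all genes was not computed, so the count cannot be read as an excess among Rab genes. Rab15 was at 277 normalized cpm in tumor 6, with the next tumor at 169. Rab21 was at 94.7 in tumor 9 (next 64.4), Rab28 at 72.8 in tumor 9 (next 49.3) and Rab26 at 4.55 in tumor 9 (next 2.05). Rab44 was at 12.6 in tumor 7, with the next tumor at 5.81, and leaving out single libraries kept its log2 fold change between 1.60 and 1.85. Rab21, Rab26 and Rab28 share tumor 9, the library with 27.4% Rn45s reads, and tumor 6, with the Rab15 value, had the next highest share among the tumors, at 9.32%. In tumor 9, however, Rab15 was at its lowest tumor value (91.5), and tumor 7, with the Rab44 value, had 2.87% Rn45s reads. A relation to this share was not tested.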

How the results depend on the processing

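Rab27b was significantly deregulated under each of the 28 alternatives. The count of Rab genes (2) was 5 without the filter, 6 in plain cpm, 13 with epithelial scaling, 1 with the replicate block, 4 after GC adjustment, 5 without both tumor 9 and gland 3, and 1 to 5 without single libraries, with 1 without tumor 9 or gland 1 and 5 without gland 3. All genes (2029) gave 3141 without the filter, 3059 with epithelial scaling, 529 with the block, 1320 with tumors 1 to 3 unpaired, and 1636 to 2627 without single libraries. Regulators and effectors (10) gave 37 with epithelial scaling, 0 with the block in limma, 8 (4 higher and 4 lower) in plain cpm, and 7 to 17 without single libraries, with 17 without gland 3. The median Rab log2 fold change (-0.11) was 0.20 in plain cpm, -0.62 with epithelial scaling, and -0.18 to -0.089 without single libraries. Pairs past the adjusted p (2) were 0 for the mean of each mouse, 0 to 3 without single libraries, where the size of the test limits what can pass, and 5 without both tumor 9 and gland 3. The replicate numbers of tumors 1 to 3 and glands 1 to 3 share only a number (correlations of deviations -0.58, 0.04 and -0.66), and 1 of the 13 genes with an adjusted p below 0.05 kept it with the block, against 2 in the same libraries unpaired. Of the 13, 8 kept it without gland 1, 5 without gland 2 and 11 without gland 3. The causes were not tested.

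Of the 39 named Rab genes and the pairs, values that turned in sign had no adjusted p below 0.05 in the main test. In plain cpm they were Rab10 (0.28), Rab1a (0.16), Rab2a (0.17), Rab35 (0.060), Rab5a (0.26) and Rab8b (0.30), and with upper quartile scaling Rab10 (0.0012) and Rab8b (0.020). With epithelial scaling they were Rab13 (-0.46), Rab14 (-0.56), Rab21 (-0.49), Rab22a (-0.50), Rab27a (-0.27), Rab32 (-0.34), Rab38 (-0.071) and Rab9 (-0.17). With the block, and unpaired, they were Rab13 (-0.091) and Rab21 (-0.063). After GC adjustment they were Rab14 (-0.15), Rab21 (-0.090) and Rab22a (-0.022). Without the mouse of tumors 8, 9 and 10 they were Rab10 (0.013) and Rab21 (-0.0076), and for the mean of each mouse Rab8b (0.023). Without both tumor 9 and gland 3 they were Rab13 (-0.11), Rab14 (-0.0066), Rab22a (-0.043), Rab8b (0.088) and the ratio of Rab2b to Rab2a (0.053). Without single libraries the ranges were -0.26 to 0.093 for Rab10, -0.19 to 0.30 for Rab13, -0.071 to 0.086 for Rab14, -0.014 to 0.12 for Rab21, -0.099 to 0.16 for Rab22a, -0.17 to 0.043 for Rab5a, -0.33 to 0.16 for Rab8b, -0.10 to 0.074 for Rab2b to Rab2a and -0.65 to 0.24 for Rab25 to Rab11a.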

Other observations

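Tumor 9 and gland 3 were often the highest or lowest of their groups. Of the 52 Rab genes, 14 were highest and 17 lowest in tumor 9 among the tumors (all genes listed 20.5% and 24.7%), and 22 were highest and 22 lowest in gland 3 among the 3 glands (all genes listed 40% and 44.1%). Highest in both libraries were 11 (21.2%, all genes listed 14.9%), namely Rab11a, Rab19, Rab1a, Rab21, Rab26, Rab28, Rab38, Rab40b, Rab5a, Rab8b and Rab9, and lowest in both were 12 (23.1%, all genes listed 19.4%), namely Rab11b, Rab13, Rab15, Rab1b, Rab20, Rab22a, Rab2b, Rab35, Rab3d, Rab5c, Rab7 and Rab8a. The longest transcript of the 11 genes had a median GC content of 45.6% (36.8% to 55.8%) and that of the 12 had 51.5% (44.5% to 58.9%). Across the 52 Rab genes, the deviation of tumor 9 from the median of the other tumors correlated with GC content at a Pearson r of -0.43 and a Spearman rho of -0.42, beside -0.42 and -0.45 across 11561 genes. For gland 3 the values were -0.19 and -0.24 across the Rab genes and -0.32 and -0.37 across all genes. These correlations are across genes of single libraries, and genes are not independent replicates. With each library adjusted for GC content, the 13 Rab genes past an adjusted p of 0.05 all kept that call, and 4 were significantly deregulated (Rab18, Rab27b, Rab4a and Rab7), which is 9.09% of 44, beside 17.7% of the 11561 genes in that fit. Rab4a is in neither list, and Rab7, lowest in both libraries, had a log2 fold change of -1.10 without them.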
